A study of Homo sapiens with 8 samples.

Results

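The cells described here were HepaRG cells with high UMI levels of 6 genes that are ST18, CYP2C19, C5orf46, GBA3, SORBS2 and NPSR1-AS1. HepaRG is an established human hepatic line whose differentiated cultures are known to hold hepatocyte-like and cholangiocyte-like cells side by side. Each cell was scored by the mean, over the 6 genes, of the natural log of 1 plus its UMIs per 10000, where a UMI is a unique molecular identifier that marks 1 captured RNA molecule. The top 7% by score were called members, which gave 502 cells of 7172 that had at least 500 genes, at most 20% mitochondrial UMIs and neither rotenone nor cycloheximide at 20 µM. The other 6670 of these cells were the reference, and the whole series held 12976 cells.

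The study exposed HepaRG cultures for 24 h and read them by split-pool single-cell RNA sequencing (Parse Evercode) in 8 sublibraries of 1 batch. The vehicle was 0.1% DMSO, and untreated medium was a further control in the cell table. The agents were brefeldin A, which blocks transport from the endoplasmic reticulum to the Golgi, cycloheximide, which stops translation, etoposide, a topoisomerase II poison, rotenone, which inhibits mitochondrial complex I, tBHQ (tert-butylhydroquinone), an NRF2 activator, troglitazone, a PPAR agonist, and tunicamycin, which blocks N-glycosylation. Brefeldin A and tunicamycin were given at 0.001, 0.01 and 0.1 µM, cycloheximide at 0.2, 2 and 20 µM, etoposide at 0.25, 2.5 and 25 µM, tBHQ at 3, 30 and 300 µM, rotenone at 0.2 and 0.4 µM, and troglitazone at 50 µM by the cell table, whereas the labels list lower troglitazone doses. All groups were this line, and the labels give no genetic change in any of them. A sample below is 1 treatment in 1 run number of the cell table. The names in that table number the samples of a treatment as replicates, whereas the study's methods state 1 treated culture per condition and do not define the runs. All n below are therefore numbers of such samples, which may be repeats of 1 culture, and p-values measure only the spread between them, which may be technical.

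In liver, CYP2C19 belongs to the cytochrome P450 2C enzymes, which oxidize many drugs and are induced through the nuclear receptors CAR and PXR. ST18 encodes a zinc-finger transcription factor of the MYT1 family, GBA3 a cytosolic beta-glucosidase, and SORBS2 an adaptor protein of the actin cytoskeleton. NPSR1-AS1 is a long non-coding RNA opposite the neuropeptide S receptor gene NPSR1, and C5orf46 is a small gene of little-known function. Hepatocyte genes such as those of cytochrome P450 enzymes and gluconeogenesis are known to be controlled in part by the transcription factor HNF4A.

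On GRCh38, CYP2C19 spans chr10:94762681-94855547 on the plus strand and C5orf46 spans chr5:147880726-147906538 on the minus strand. GBA3 (chr4:22692914-22819575, plus strand) and SORBS2 (chr4:185585444-185956652, minus strand) share a chromosome but stand far apart on it. ST18 lies elsewhere, and NPSR1-AS1 (chr7:34346512-34871582, minus strand) overlaps NPSR1 (chr7:34658218-34878332, plus strand). Whether the counting used strand was not given in the sources used here, so reads of NPSR1-AS1 and NPSR1 in the overlap cannot be told apart.

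Promoters are shown for a pair of the score's genes and for CYP2C8, a neighbour of CYP2C19 that was also higher in members. Each runs 5′ to 3′ from 250 bases before to 50 bases after the RefSeq transcription start (GRCh38.p14), at chr10:94762431-94762730 (plus strand), chr10:95069448-95069747 (minus strand) and chr5:147906489-147906788 (minus strand) in the order printed. Capitals mark the motif CAAAGTCC, a core of HNF4 sites, searched on both strands.
CYP2C19: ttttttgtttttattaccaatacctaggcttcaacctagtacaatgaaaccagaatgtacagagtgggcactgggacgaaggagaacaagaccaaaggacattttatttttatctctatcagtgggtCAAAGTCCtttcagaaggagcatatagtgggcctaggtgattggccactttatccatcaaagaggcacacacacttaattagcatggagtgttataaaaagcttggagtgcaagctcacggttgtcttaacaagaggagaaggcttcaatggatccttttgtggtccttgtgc
CYP2C8: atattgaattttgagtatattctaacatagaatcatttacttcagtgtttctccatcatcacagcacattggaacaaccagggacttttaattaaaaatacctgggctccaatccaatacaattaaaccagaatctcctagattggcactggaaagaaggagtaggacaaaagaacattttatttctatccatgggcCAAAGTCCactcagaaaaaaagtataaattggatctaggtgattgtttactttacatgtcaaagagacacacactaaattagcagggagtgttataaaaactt
C5orf46: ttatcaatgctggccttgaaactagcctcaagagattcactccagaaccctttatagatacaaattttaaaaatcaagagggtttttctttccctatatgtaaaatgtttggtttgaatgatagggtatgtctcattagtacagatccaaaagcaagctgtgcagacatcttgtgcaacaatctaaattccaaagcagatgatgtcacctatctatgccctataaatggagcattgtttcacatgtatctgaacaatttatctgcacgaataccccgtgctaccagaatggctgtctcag
CAAAGTCC began at -123 in CYP2C19 and at -53 in CYP2C8, counted from the start site. It was not found in the C5orf46 window, while the 3 windows each held TATAAA, which began at -31, -31 and -30. CYP2C8 held a further TATAAA at position 39, and C5orf46 held one on the opposite strand at -200. CAAAGTCC stood in 1.20% of all 35116 promoters of the table and in 1.29% of the 12828 promoters of tested genes. Of the 560 promoters of genes higher in members (see the comparison with reference cells), 33 or 5.89% held it, against 0.552% of the 1087 promoters of lower genes. TATAAA, which many tissue-specific promoters carry, stood in 15.4% and 10.2% of the promoters of higher and lower genes and in 7.23% of those of tested genes. These matches are letters in a window and show no binding.

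The score formed a continuous tail, so the members are a range of that tail and not a separate group of cells. The lowest member scored 1.168 and the highest reference cell 1.168, and the 10th cell inside and outside the limit scored 1.175 and 1.166. There were 195 members within 0.1 above the limit and 265 reference cells within 0.1 below it. The median score was 1.30 among members and 0.222 in the reference, and 35.5% of the cells the rule could choose scored 0.5 or more.

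**Figure D1:**
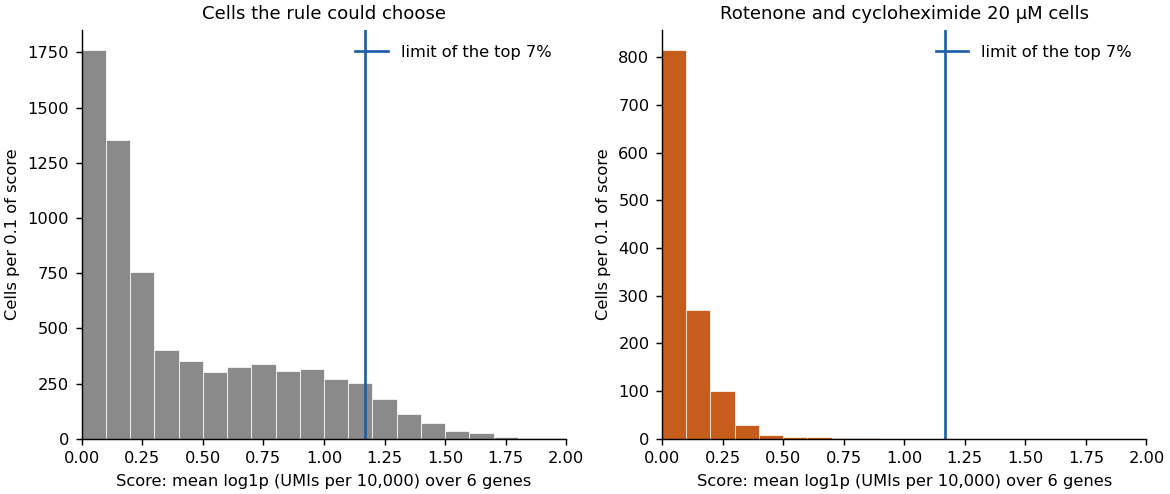
Histograms of the score (x axis, mean log1p of UMIs per 10000 over the 6 genes) as cells per 0.1 of score (y axis), for the 7172 cells the rule could choose (left, grey) and for 1234 rotenone and cycloheximide 20 µM cells under the same quality limits (right, orange). The blue line is the limit at 1.168; the left tail runs across it without a gap, and the highest left-out cell scored 0.813.

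By the choice of the cells, the 6 genes were high in members, which is a description and not a finding. SORBS2 and NPSR1-AS1 had UMIs in 100% of members, GBA3 in 97.8%, C5orf46 in 84.3%, CYP2C19 in 77.9% and ST18 in 63.9%. In the reference these shares were 73.4%, 78.7%, 37.4%, 36.1%, 18.8% and 24.8% in the same order. The leading gene of the name was thus the one most often undetected in the members, with a median of 2 UMIs per member. All 6 genes were detected in 210 members, 5 in 210, 4 in 74 and 3 in 8. After each cell was thinned to 5000 UMIs, ST18 was seen in 28.1% of members and 7.42% of reference cells, and CYP2C19 in 40.6% and 4.36%.

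Leaving a gene out of the score gives a level that the choice of cells did not use. Cells in the top 7% by the other 5 genes still had higher CYP2C19, by 2.35 ± 0.49 on the log2 scale (SD, n = 7 samples, higher in 7). GBA3 was higher by 1.92 ± 0.27 (n = 7, higher in 7), NPSR1-AS1 by 1.61 ± 0.17 (n = 8, higher in 8) and SORBS2 by 1.54 ± 0.22 (n = 9, higher in 9). C5orf46 was higher by 1.02 ± 0.28 (n = 6, higher in 6), and ST18 by 0.80 ± 0.52 (n = 8, higher in 7, the lowest sample at -0.01). Each gene was thus higher on average in cells high in the other 5, least evenly so for ST18. As the members were chosen with earlier results of these data known, this is a description and no independent test of the set. Over the 7172 eligible cells, correlations (rho) of gene pairs ran from 0.09 (ST18 with CYP2C19) to 0.50 (SORBS2 with NPSR1-AS1). Between 394 and 437 of the 502 members (78.5% to 87.1%) were still chosen without 1 gene.

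Members had a median of 51278 UMIs and 8472.5 genes per cell, against 39528.5 and 8006 in the reference, and 15.5% and 15.0% mitochondrial UMIs. Thinned to 5000 UMIs, members showed 2467.5 genes and reference cells 2585. The sublibraries held 45 to 76 members each (5.31% to 8.32% of their eligible cells). Over the series, 822 barcodes occurred in 2 or more sublibraries, each within 1 sample, and 46 members carried such a barcode. No doublet caller was run; an alternative without the deepest cells stands in the closing section, and paralogs within the CYP2C and CYP3A families could split reads.

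Members were found under all 17 treatments that the rule used. The share was 8.94% in DMSO (70 of 783 cells, exact 95% interval 7.04 to 11.2), 8.04% in medium, 8.49% under troglitazone, and from 5.95% to 6.75% under the 3 etoposide doses. It ran from 7.14% to 8.61% under cycloheximide 2 and 0.2 µM, from 7.32% to 12.6% under brefeldin A and from 7.09% to 11.7% under tBHQ, where the numbers of cells were small. The lowest was 4.70% under tunicamycin 0.001 µM (77 of 1640 cells, 3.72 to 5.83), and tunicamycin 0.01 and 0.1 µM gave 6.99% and 5.84%. These intervals cover counting error only. DMSO run 6 (17.2%) and tunicamycin 0.001 µM run 4 (7.77%) lay above the interval of their treatment. Under the 3 etoposide doses, in contrast, all samples lay inside the interval of their dose. Whether samples spread more than counting error allows was not tested. The 4 DMSO samples had shares of 7.07% to 17.2% (mean 10.6 ± 4.75, SD), and both tunicamycin 0.001 µM samples, averaging 6.01 ± 2.48 (SD), reached up to 7.77%, so these groups overlap.

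**Figure D2:**
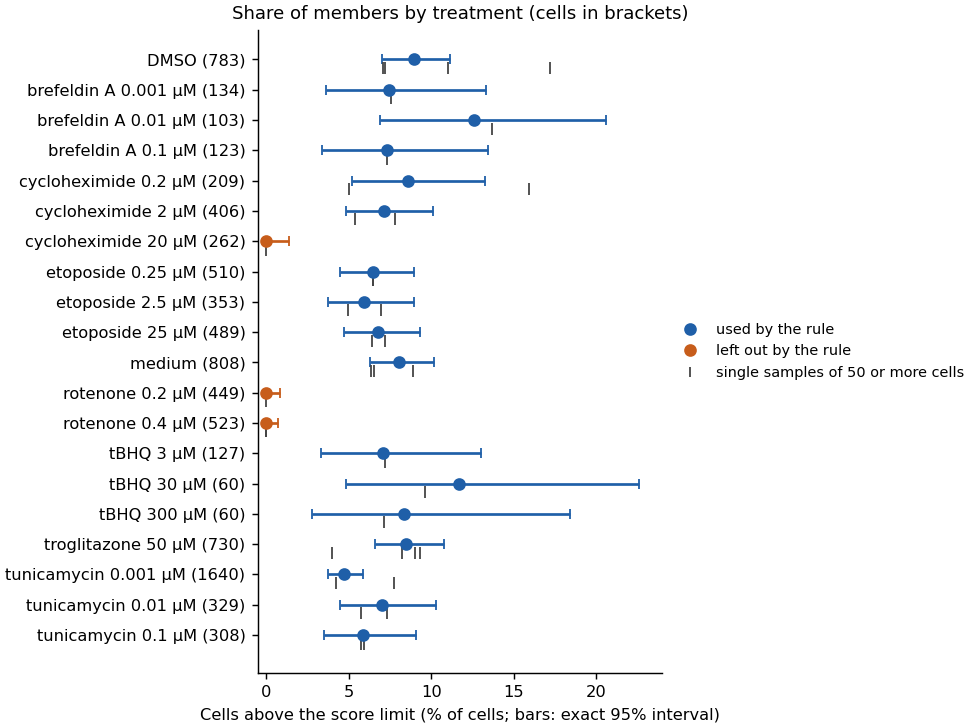
Share of cells above the score limit in percent (x axis) for each treatment (y axis, cells in brackets). Points are shares with exact 95% intervals, blue for treatments the rule used and orange for those it left out, and black ticks are single samples of 50 or more cells; used treatments lie between 4.70% and 12.6%, and the left-out treatments at 0.

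The rule left out rotenone and cycloheximide 20 µM, and no cell there reached the limit. None of 1234 such cells did, which allows a share of up to 0.243%, and the floors were 1.15% for the 262 cycloheximide 20 µM cells and 0.668% and 0.574% for the 449 and 523 cells at rotenone 0.2 and 0.4 µM. The median over these cells was 108678 UMIs, but depth differed by treatment. It was 184833 at rotenone 0.2 µM, 126781 at rotenone 0.4 µM and 31336.5 at cycloheximide 20 µM, the last below the 39528.5 of the reference. Of the 1234 cells, 9 (0.729%) scored 0.5 or more. The levels of the score's genes in these cells, which the rule did not use, are set beside DMSO reference cells, from which the high scorers had been removed. GBA3 had 1.77 CPM (UMI counts per 1000000 UMIs summed over the cells of a group) at cycloheximide 20 µM, 4.70 at rotenone 0.2 µM and 27.6 at rotenone 0.4 µM, against 62.4 in DMSO reference cells. NPSR1-AS1 had 49.0, 13.7 and 22.6 against 256, and SORBS2 51.5, 22.0 and 39.5 against 255. For these 3 genes and for ST18 each left-out sample lay below each of the 4 DMSO samples. ST18 had 1.32 to 10.7 CPM in the left-out samples and 22.1 to 39.9 in the DMSO samples. CYP2C19 and C5orf46 overlapped, since cycloheximide 20 µM run 4 (37 cells) had 12.8 and 36.9 CPM and the lowest DMSO samples 7.62 and 29.4. The albumin gene ALB lay below each DMSO sample only at cycloheximide 20 µM, with 1066 CPM in run 3 and 2744 in run 4. At rotenone 0.2 µM it had 5457, within the range of the DMSO samples. It had 11458 CPM at rotenone 0.4 µM in run 5 (413 cells) and 5378 in run 6 (110 cells), against 5733, 4757, 7126 and 11186 in DMSO reference cells of runs 3 to 6. The rotenone 0.4 µM and DMSO samples overlap, and their difference of 0.20 on the log2 scale was within the spread between samples (exact permutation test over samples, two-sided, p = 0.8, where 0.133 is the smallest this design allows).

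Clusters were then made from 2000 variable genes without the 6 genes of the score, which gave 18 clusters. The members lay mostly in 4 of them, and 10 clusters with 3617 cells held none. Cluster 6, led by APOA1, SLC22A25 and SLC22A7, held 254 members, 42.5% of its 597 cells. Cluster 5, led by GRM3, NCKAP5 and ONECUT1, held 133 of 863 cells (15.4%). Cluster 12, led by the zinc transporter gene SLC30A8, held 65 of 268 cells (24.3%), and cluster 8, led by ZNF208 and PKHD1 beside ST18 itself, held 35 of 528 (6.63%). Together these clusters took in 487 members (97.0%), so the members came from several expression states.

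**Figure D3:**
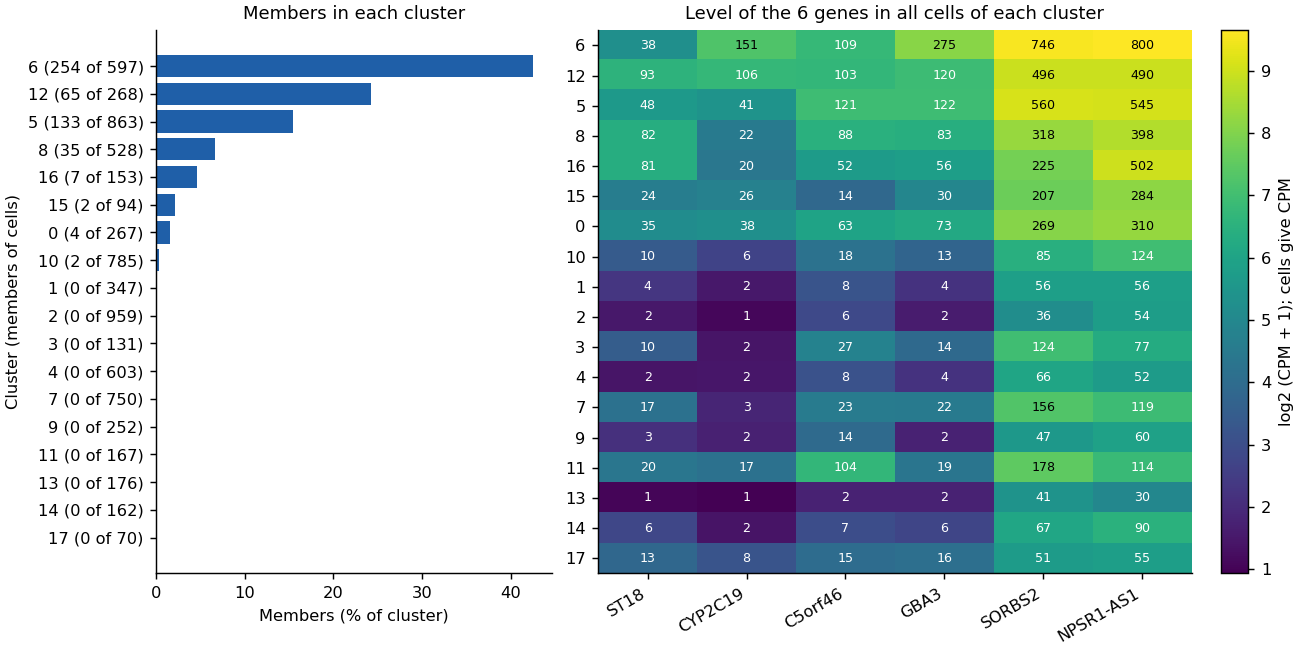
Left, members as a percent of each of 18 clusters made without the 6 genes (x axis), with members and cells in brackets on the y axis. Right, level of each of the 6 genes (columns) in all cells of the same clusters, coloured by log2 (CPM + 1) with CPM printed in the tiles; CYP2C19 is highest in cluster 6 at 151 and ST18 in cluster 12 at 93.

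Members of these clusters carried the 6 genes in different proportions. ST18 stood at 244 CPM in members of cluster 8, 152 in cluster 12, 102 in cluster 5 and 59.3 in cluster 6. CYP2C19 had another order, with 327 in cluster 12, 255 in cluster 6, 94.1 in cluster 5 and 82.3 in cluster 8. GBA3 was 331 in members of cluster 6 and 206 to 216 in the other three. The urea cycle gene ARG1 was highest in members of cluster 6, at 147 CPM against 61.5 in cluster 12, 15.6 in cluster 5 and 0.63 in cluster 8. ALB was less uneven, at 14948 to 20246 CPM over the members of the 4 clusters.

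Within cluster 6, members and the other 343 cells differed little in ALB, APOB and ARG1, and more in CYP3A4, at 363 and 268 CPM. ALB was 20246 CPM in members and 20095 in the other cells, APOB 8235 and 8305, and ARG1 147 and 130. The bile salt export pump gene ABCB11 was 142 and 163. COL3A1, a collagen gene, differed most among the genes outside the score that were summed there, at 1.39 in members and 10.9 in the other cells. CYP2C19 (255 and 71.2) and ST18 (59.3 and 22.0) differed by the choice of the cells. In cluster 8, CYP3A4 was at 97.7 in the 35 members and 10.0 in the other cells. These are sums over cells of many samples, given without a test.

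Across genes, members had more RNA of mature hepatocyte genes than the reference as a whole, but little more than the cells nearest to them by score. Against the next 7% of cells by score, in the 4 samples with at least 20 cells of each, 8 of 10641 genes were higher and 27 lower by the rule given next. They were compared with reference cells of the same sample in the 6 samples with at least 20 members (191 members, 2888 reference cells): DMSO run 5, cycloheximide 2 µM run 3, etoposide 0.25 µM run 4, medium run 5, troglitazone run 6 and tunicamycin 0.001 µM run 3. A gene was called higher or lower where its mean log2 ratio of CPM was at least 1 in size with the same sign in all 6 samples. Of 11334 genes tested, 634 (5.59%) were higher and 936 (8.26%) lower. As the members were chosen on these cells, the ratios are a description without a test. The median gene stood at -0.21 on the log2 scale, and with TMM scaling at -0.13, which moved the share of higher genes among the calls from 40.4% to 46.5%.

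CYP2C19, which the choice of the cells had made high, headed the rises at 3.38 ± 0.23 on the log2 scale (SD, n = 6 samples). Its level in members was 203 CPM in DMSO, 231 under cycloheximide 2 µM, 83.5 under etoposide 0.25 µM, 202 in medium, 298 under troglitazone and 242 under tunicamycin 0.001 µM. In reference cells of the same samples it was 18.8, 22.7, 10.6, 18.7, 27.8 and 18.7. The etoposide sample was the lowest on both sides. CYP2C8 and CYP2C18, of the same P450 gene cluster, were higher by 2.31 ± 0.38 and 2.41 ± 0.50, whereas HELLS, a chromatin remodeller gene nearby that dividing cells use, was lower at -1.12 ± 0.59.

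Next came organic anion transporter genes SLC22A25 (3.08 ± 0.60) and SLC22A7 (2.86 ± 0.44) and the gluconeogenic phosphatase G6PC1 (3.01 ± 0.71). ARG1, the last enzyme of the urea cycle, was higher by 2.88 ± 1.18, with 23.4 to 144 CPM in members and 3.58 to 29.6 in the reference. Its ratio was the least even of the rises because of etoposide 0.25 µM, where members had 23.4 and reference cells 12.9. CYP3A43, ABCB11, the plasma protein genes HRG and HPX, the glycolysis regulator PFKFB1 and the unnamed ENSG00000248359 were also among the 12 largest rises at 2.62 to 2.82.

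The largest falls were genes of other cell states. The fibrillar collagen gene COL3A1 was lower at -4.93 ± 1.60, with 0 to 20.6 CPM in members and 9.83 to 116 in the reference, and it had UMIs in 9.16% of members. COL8A1 followed at -4.71 ± 0.67, with 8.33 to 18.5 against 232 to 485. The matrix gene POSTN (-3.93 ± 1.06), the integrin genes ITGA10 (-3.97 ± 0.45) and ITGA3 (-3.85 ± 0.68), and KDR (-4.19 ± 0.89), a receptor of the growth factor VEGF, were also among the 12. The others were RIPOR2, LMNTD1, CYP4B1, ENSG00000285751, CPNE4 and GPM6B, at -4.69 to -3.76. ENSG00000285751 varied most, from -8.42 to -1.16 over the samples.

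**Figure D4:**
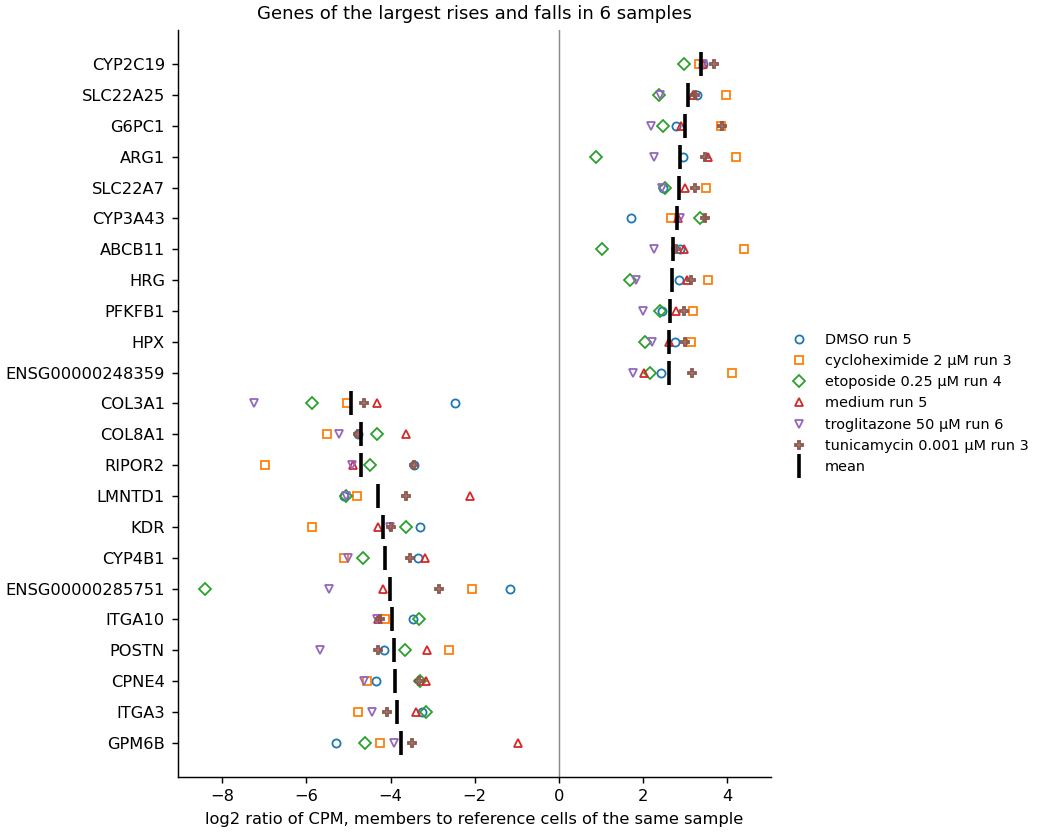
Log2 ratio of CPM in members to reference cells of the same sample (x axis) for genes among the 12 largest rises and for the 12 largest falls (y axis). Each symbol is 1 of 6 samples and the black bar their mean; every symbol of a rise lies above 0 and of a fall below 0, CYP2C19 clusters tightly around 3.38 and ENSG00000285751 spreads from -8.42 to -1.16.

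Hepatocyte markers were higher as a list. Of 24 markers measured, 21 were higher and none lower, with a median of 1.91 against -0.21 over all genes. ALB was higher by 1.49 ± 0.34, with 9701 to 23434 CPM in members and 2426 to 11674 in the reference. The transcription factor gene HNF4A was higher by 1.16 ± 0.15 (187 to 275 against 83.1 to 127), while APOB, at 0.95 ± 0.32, missed the limit of size. The apolipoprotein gene APOA1 was higher by 2.54 ± 0.40, and TAT, a tyrosine catabolism enzyme, by 2.85 ± 0.96.

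Genes from the lists of both zones of the liver lobule were higher, but the perivenous list was mixed. Of 20 periportal genes 12 passed the minimum of UMIs, and 10 were higher and none lower (median 2.46), among them AGXT, which detoxifies glyoxylate, at 2.57 ± 0.41 and the urea cycle gene CPS1 at 2.48 ± 0.35. Of 20 perivenous genes 15 passed, and 8 were higher and 2 lower (median 1.85). Higher were CYP3A4 (2.44 ± 1.10), a main drug-metabolizing P450, and CYP7A1 (2.99 ± 0.69), the rate-limiting enzyme of bile acid synthesis. Lower were the transporter gene SLCO1B3 at -2.93 ± 1.19 and the Wnt target AXIN2 at -1.98 ± 0.65, and GLUL, the glutamine synthetase of the perivenous layer, stood at -0.32 ± 0.31. The 8 higher perivenous genes were 5 P450 genes, ADH1B, ADH4 and the receptor gene NR1I3, and of 5 Wnt target genes that passed 1 was higher and 2 lower.

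Drug and bile acid genes moved with the hepatocyte markers. Of 18 CAR and PXR targets 16 passed, and 11 were higher and none lower (median 1.99), including the receptor genes NR1I2 (1.97 ± 0.49) and NR1I3 (2.80 ± 0.97) themselves. CYP3A7, at 2.39 ± 2.40, was higher in 5 of 6 samples and so was not called. Of 16 bile acid genes 15 passed, with 10 higher and none lower (median 1.99), such as CYP8B1 (2.71 ± 0.25) and the sterol exporter ABCG5 (2.83 ± 0.33), while CYP7B1 of the alternative route stood at -0.92 ± 0.21. Of 15 acute phase genes 14 passed and 12 were higher (median 1.51), such as HP, haptoglobin, at 2.02 ± 0.37. Among 18 other drug metabolism genes that passed, 9 were higher, and among 13 PPAR targets 5 were, with the lipid droplet gene PLIN5 at 1.51 ± 0.42.

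Cell cycle and matrix genes were lower or not called. Of 10 G2/M genes that passed, 2 were lower and none higher (median -2.70), and of 8 S phase genes 4 were lower (median -1.16). MKI67, a proliferation marker, stood at -3.32 ± 2.10 and was not called because etoposide 0.25 µM run 4 alone lay above 0. Of 12 mesenchymal markers that passed, 7 were lower (median -2.56), such as DCN (-4.05 ± 0.77) and SPARC (-3.43 ± 0.85), and of 9 cholangiocyte and progenitor markers ONECUT1 was higher (1.89 ± 0.40) and SPP1 lower (-1.29 ± 0.50). The cholangiocyte keratin KRT19 stood at -0.89 ± 0.30 and SOX9 at 0.40 ± 0.21, while KRT7, CFTR and SCTR did not pass the minimum in either group. ONECUT1 is also a hepatocyte factor gene.

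Stress lists were mostly uncalled. None of 13 endoplasmic reticulum stress genes (median 0.50), 11 heat shock genes (median -0.32) or 13 mitochondrial mRNAs (median -0.02) was called in either direction, and of 18 p53 targets 3 were lower. Of 10 NRF2 targets 4 were lower, such as the cystine transporter gene SLC7A11 (-1.34 ± 0.51), and the heme oxygenase gene HMOX1 was higher (1.25 ± 0.31). None of 5 nuclear retained RNAs was called, and of 12 integrated stress response targets SLC7A11 was lower.

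Relatives of the score's genes were also listed, and the score's genes themselves, which the rule made high, are set aside here. None of the other 8 glycosidase and glycolipid genes that passed was called in either direction, and neither was any of the other 4 genes of the MYT1 family and its partners. Of the other 14 actin and sarcomere adaptor genes none was higher, and FLNA, ACTN1 and ABL2 were lower, with FLNA, a filamin, at -1.71 ± 0.93. ACTN1 (-1.02) and ABL2 (-1.01) were just past the limit, and each lost its call without cycloheximide 2 µM run 3 (-0.95 for both). NPSR1, opposite NPSR1-AS1, was higher by 1.71 ± 0.26, with 11.8 to 22.2 CPM in members and 4.88 to 6.58 in the reference. Of the 14 neuroendocrine markers other than ST18, only SCG5 passed, and it was higher (1.12 ± 0.35). Of 14 intestinal markers 4 passed and 3 were higher, among them TM4SF4 (1.48 ± 0.28), and of the endothelial and leukocyte lists only KDR and CD68 passed.

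The contrast with all reference cells includes cells of other expression states, and a narrower reference gave fewer calls. Against the other cells of the 4 clusters that held members (185 members, 764 cells, 10815 genes), 206 genes (1.9%) were higher and 235 (2.17%) lower. Of these, 203 and 220 were also called against all reference cells, and none was called the other way. CYP2C19 was still higher by 2.44 ± 0.38, SLC22A25 by 1.93 ± 0.55, G6PC1 by 1.88 ± 0.60 and SLC22A7 by 1.72 ± 0.36, and COL8A1 was lower at -3.09 ± 0.67. ARG1 lost its call at 1.72 ± 1.22, as etoposide 0.25 µM run 4 gave -0.19. ALB stood at 0.52 ± 0.29, HNF4A at 0.48 ± 0.07 and ST18 at 0.72 ± 0.52, all uncalled. Of the 24 hepatocyte markers 8 were higher, and of the 12 periportal genes 8 were. The 4 clusters were pooled here, although over all samples cluster 6 held 254 of the 487 members and 343 of the 1769 other cells. Summed over all samples, G6PC1 had 111 CPM in members and 91.9 in other cells of cluster 6, and 12.5 and 9.21 in cluster 5. It had 35.5 and 10.4 in cluster 12, and 18.6 and 1.48 in cluster 8. The share of the difference that goes with the clusters was not tested.

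The levels of these genes in members were then read by treatment. In the 13 treatments with at least 10 members, ALB in members ran from 10524 CPM under brefeldin A 0.01 µM and 10999 under cycloheximide 0.2 µM to 23486 in DMSO. Single samples spread more widely. In the samples with at least 10 members, ALB ran from 2370 CPM in members of cycloheximide 0.2 µM run 4, below the 2645 of its reference cells, and 2394 in members of troglitazone run 4 (1789 in its reference cells) to 34353 in members of DMSO run 6 (11186). By treatment, CYP2C19 was lowest under etoposide 0.25 µM at 96.2 and highest under troglitazone at 417. C5orf46 was highest under etoposide 0.25 µM at 376 and lowest under cycloheximide 2 µM at 116. Single samples overlapped here too. CYP2C19 ran from 65.7 to 299 in DMSO samples, with 132 and 83.5 under etoposide 0.25 µM and 714, 261 and 298 under troglitazone. C5orf46 ran from 94.7 to 415 in DMSO samples, with 264 and 416 under etoposide 0.25 µM and 115 in cycloheximide 2 µM run 3. CYP3A4 ran from 9.10 under etoposide 2.5 µM, where 9 UMIs were counted, to 848 under troglitazone. HNF4A stayed between 168 and 282. The members of a treatment were picked by score, so levels of the 6 genes between treatments are partly held by the limit.

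Treatments were tested within members where at least 2 samples had 10 or more members, by edgeR's quasi-likelihood test on counts summed per sample against 4 DMSO samples, which all 5 comparisons share. In bulk sums of this kind, fewer cells of a state and less RNA per cell cannot be told apart. For etoposide 0.25 µM (2 samples, 11001 genes), 1 gene was higher (0.00909%) and 1 lower (0.00909%). The lower gene was CYP2E1, a perivenous P450 that oxidizes ethanol, with 12.1 and 5.07 CPM under etoposide and 81.4, 117, 62.3 and 41.5 in DMSO. The groups did not overlap, and the fold was -3.22 ± 0.49 on the log2 scale (SE, adjusted p = 0.0483), although 28 of the 32 UMIs of DMSO run 4 came from 1 cell. In reference cells the same contrast gave -0.40 (adjusted p = 1.00). CYP2E1 in members was also below each DMSO sample in medium (19.2 and 30.3 CPM) and under troglitazone (15.1, 17.7 and 19.2). It had 47.7 and 20.1 under tunicamycin 0.001 µM, and 64.0 and 15.1 under etoposide 25 µM. A low level was thus not particular to etoposide 0.25 µM. CYP2E1 no longer passed without DMSO run 3 (edgeR adjusted p = 0.223), DMSO run 4 (0.130) or etoposide run 4 (0.438), with folds of -3.15, -3.02 and -2.55. With run as a block, in the 2 runs that hold both groups, 4 genes passed, with CYP2E1 at -3.65 ± 0.50 (edgeR adjusted p = 0.00198) and CYP3A4 at -2.57 ± 0.35 (0.00198) among them, and MKI67 did not (0.236).

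The higher gene under etoposide 0.25 µM was MKI67, at 3.89 ± 0.57 (SE, edgeR adjusted p = 0.0483). It rested on 2 cells, since 139 of 147 UMIs in run 4 came from 1 member, which lay in the cluster led by TOP2A and ANLN, and 13 of 15 UMIs in run 3 came from another. With TMM factors neither gene passed, and CYP2E1 had an adjusted p of 0.0562 there.

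For medium, etoposide 25 µM, troglitazone and tunicamycin 0.001 µM against DMSO, edgeR called no gene in members (0% of 10926, 10942, 10527 and 11756 genes). At an unadjusted p under 0.05 there were 216, 338, 235 and 277 genes in that order, and DESeq2 called 0, 1, 4 and 2. Run as a block ended some of these zero counts. In the 2 runs that hold both groups it gave 0 genes for medium, 5 for etoposide 25 µM and 10 for tunicamycin 0.001 µM, and 2 for troglitazone in 3 runs. CYP2B6, a CAR target, was lower under etoposide 25 µM by that fit at -1.96 ± 0.42 (edgeR adjusted p = 0.0101) and under tunicamycin 0.001 µM at -2.16 ± 0.38 (0.0199). Both results share DMSO runs 3 and 4, where CYP2B6 had 85.0 and 124 CPM in members. DMSO runs 5 and 6, which these fits leave out, had 21.1 and 30.6. With all DMSO samples and no block, CYP2B6 was not called in either comparison. With 2 pairs of samples, whether run numbers pair them could not be shown from those samples. These counts rest on 10 to 61 members per sample and do not show that members were unaffected.

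Troglitazone was the comparison with 3 pairs of samples of the same run, and the runs paired them (correlations of the deviations from the group means 0.42, 0.27 and 0.31 for the same run). With run as a block, edgeR called 2 genes higher in members and none lower. One of these, CYP3A43, a P450 of the CYP3A family, had 277, 117 and 237 CPM in runs 4, 5 and 6 under troglitazone and 98.7, 38.2 and 64.2 in the DMSO samples of those runs. It was higher in every pair, by 1.67 ± 0.22 (SE, edgeR adjusted p = 0.0235). The unpaired DMSO run 3 had 162, above troglitazone run 5, so the groups overlap. Without the block, with DMSO run 3 in the fit, CYP3A43 did not pass, at 1.25 ± 0.41 (adjusted p = 1.00).

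CYP3A4, the best known PXR target, had 367, 1065 and 700 CPM in members under troglitazone and 332, 153, 116 and 245 in DMSO. The groups did not overlap, yet the adjusted p of edgeR was 0.0763 with the block (2.05 ± 0.33) and 0.996 without it (1.75 ± 0.38). Of 17 CAR and PXR targets tested in members without the block none passed, and their median was 0.57 against 0.04 over all genes. For CYP2B6 the groups overlapped, with 105, 332 and 44.8 CPM under troglitazone and 85.0, 124, 21.1 and 30.6 in DMSO. Paralogs of the CYP2C and CYP3A families could share reads.

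PPAR targets, through which troglitazone is known to act, were set beside them in both groups of cells. PDK4, which switches cells from glucose to fat oxidation, had 141 to 166 CPM in troglitazone members and 90.8 to 186 in DMSO members, so these overlap (0.22 ± 0.25, SE). In reference cells it had 137 to 152 under troglitazone and 50.6 to 62.9 in DMSO and rose by 1.31 ± 0.15 (edgeR adjusted p = 0.00668). DMSO members thus already had PDK4 at about the level of treated reference cells. PLIN2, a lipid droplet coat gene, showed the same order, with 276 to 295 in treated members and 242 to 330 in DMSO members, against 217 to 305 and 130 to 163 in reference cells. PLIN4 did not, with 24.1 to 40.6 in treated members and 11.8 to 25.5 in DMSO members, against 34.2 to 53.4 and 8.68 to 23.8 in reference cells. Of 11 PPAR targets tested in members without the block none passed, and their median was 0.07 against 0.04 over all genes.

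The difference of the effect between members and reference cells was tested in edgeR with sample as a block. For PDK4 it was -1.05 ± 0.23 (SE, unadjusted p = 0.00029, adjusted p = 0.808) and for PLIN2 -0.74 ± 0.21, and 0 of 15890 genes (0%) passed for troglitazone, with 773 at an unadjusted p under 0.05 and 0 by DESeq2. A smaller troglitazone effect on these genes in members was therefore not shown. For CYP3A4 it was -1.59 ± 0.57 (adjusted p = 1.00). FABP4, an adipocyte lipid carrier gene, rose in reference cells by 6.02 ± 0.37 (edgeR adjusted p = 3.89e-05), and in members went from 0 to 1.20 CPM in DMSO to between 5.22 and 90.3 under troglitazone. In the highest of these samples 57 of 60 UMIs came from 1 member, a deep cell with 252365 UMIs of all genes. This member lay in cluster 0, which was led by COL3A1 and had ALB at 7170 CPM over its cells.

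**Figure D5:**
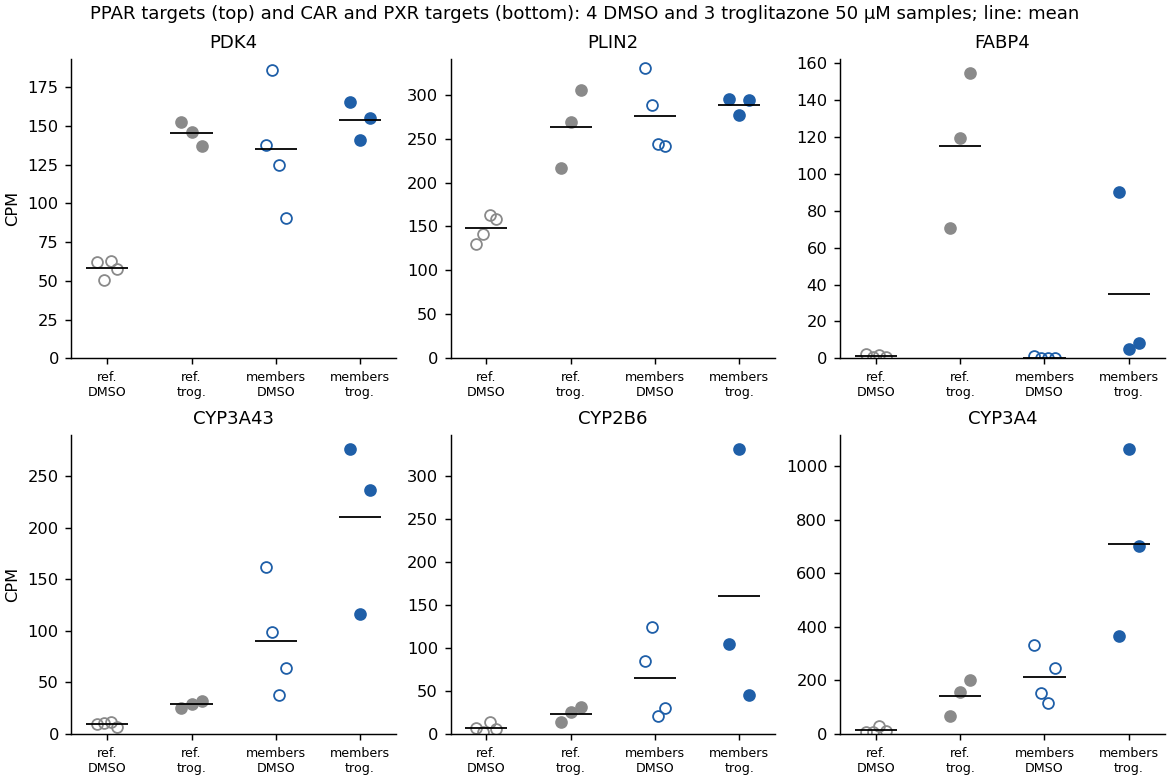
CPM (y axis) of PPAR targets PDK4, PLIN2 and FABP4 (top) and CAR and PXR targets CYP3A43, CYP2B6 and CYP3A4 (bottom) in reference cells (grey) and members (blue) of 4 DMSO samples (open) and 3 troglitazone 50 µM samples (filled); lines are means. PDK4 separates the treatments in reference cells and overlaps in members, and CYP3A4 separates them in both.

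Over the other comparisons, 1 gene passed the test of a difference between members and reference cells, ENSG00000286385, under etoposide 0.25 µM (0.00609% of 16407 genes). This long non-coding RNA had 17.6 to 22.0 CPM in etoposide members and 0 to 1.32 in DMSO members, and 92.5 to 115 and 52.3 to 98.7 in reference cells. The difference was 4.55 ± 0.56 on the log2 scale (SE, edgeR adjusted p = 0.0178). In members of run 3 all 20 of its UMIs came from 1 cell, and in run 4 31 of 45 did. Without DMSO run 3, DMSO run 4 or DMSO run 6 no gene passed. No gene passed for etoposide 25 µM, medium or tunicamycin 0.001 µM, with 805, 432 and 513 genes at an unadjusted p under 0.05 and 2, 2 and 0 genes by DESeq2.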

How the data were processed

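HepaRG cells were profiled with the Parse Evercode kit on GRCh38, and the deposited matrix holds UMI counts per gene and cell that the authors made and did not normalize. The pipeline version and annotation were not given in the sources used here. UMIs per cell had a median of 45221 over the series, and intervals and floors cover counting error only. The study's methods state 1 treated culture per condition. Treatments came from the sample names of the deposited cell table, and a sample is 1 treatment in 1 run number, no column of unknown samples was found, and Y-linked genes were left out.

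Members were chosen by the score given above, with Python 3.11.15 and scanpy 1.11.5. The members, gene lists and tests were chosen with earlier results of these data known. Clusters used 2000 variable genes, 50 principal components, 15 neighbours and Leiden resolution 1, without the score's genes, and no doublet caller was run. For members against reference cells, UMIs were summed per sample with a prior of 0.5, scaled to CPM, and genes needed at least 50 UMIs and 10 CPM in the higher group. Named genes were the 6 genes of the score, NPSR1, 9 fixed markers, the 12 largest rises and falls with at least 50 CPM, up to 4 genes per list with at least 20 and, per edgeR comparison, up to 8 in each direction with at least 50; further genes were added after their values were seen, to complete a list or a pathway. Within members, edgeR 4.0.16 (R 4.3.3) was fitted to sums per sample with total-count scaling, filterByExpr and Benjamini-Hochberg adjustment at 0.05. Run numbers paired troglitazone and DMSO samples, as deviations from group means correlated at 0.42, 0.27 and 0.31 over 4001 genes. Alternatives were TMM factors, DESeq2 1.42.0, other filters, other score limits and leaving out each sample. Narrower references, the run block and the test of a difference between members and reference cells were added after seeing the data, as was the exact permutation test of ALB in rotenone samples. The statistics were tested on simulated data. Some genes among those the rules name are not reported here.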

Additional observations from a re-analysis of the deposited data

Results flagged for a closer look

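Of 118 groups of samples examined for a sample far from the others, 6 had one, and chance gives about 5%. Each value here is a log2 ratio of members to reference cells in 1 of the 6 samples. Under troglitazone run 6, FDXR, a p53 target, stood at -3.13 with the other samples at -1.18 to -0.58, and KRT19 at -1.49 with the others at -0.92 to -0.66. Under cycloheximide 2 µM run 3, KDR stood at -6.44 with the others at -4.35 to -3.34, resting on 1 UMI in members. In the same sample the heat shock genes HSPB1 and HSPH1 stood at -0.15 and -0.025, with the others at -0.82 to -0.66 and -0.70 to -0.54. Under etoposide 0.25 µM run 4, MKI67 stood at 0.75 with the others at -5.08 to -3.08, and 139 of its 147 UMIs came from 1 member. The effect of etoposide 0.25 µM on ENSG00000286385 differed between members and reference cells by 4.55 on the log2 scale, by the edgeR test of the difference, with most of its member UMIs from a single cell in each run.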

How the results depend on the processing

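Members against reference cells kept its counts within 1.5 times under other score limits, thinning, TMM, omission of deep cells and omission of any of the score's genes. The samples with enough members changed with the setting, from 6 to 2 for the top 5%, 12 for the top 10% and 9 after thinning. Scores without 1 gene gave 6 to 9. A call needs the same sign in every sample, so these counts are not equally strict. Leaving out 1 sample gave 602 to 686 genes higher and 885 to 1063 lower. Without a minimum of UMIs there were 15595 higher and 1830 lower, since genes with hardly any UMIs then count. Against other cells of the members' clusters 206 were higher and 235 lower, and against the next 7% of cells by score 8 and 27, where SLC7A11 turned to 0.31 from -1.34. Of 78 called named genes, 73 kept their call without each sample in turn (not ABL2, ACTN1, PCNA, TP53I3 and FDXR, which fell just short at -0.99 to -0.94) and 60 under every other score, depth, filter and scaling setting. All 17 shares stayed inside their intervals after thinning.

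For treatments within members, counts are in the order etoposide 0.25 µM, etoposide 25 µM, medium, troglitazone and tunicamycin 0.001 µM. DESeq2 called 10, 1, 0, 4 and 2 genes, no filter 54, 8, 33, 45 and 30, TMM factors 0 in each, and run as a replicate block 4, 5, 0, 2 and 10. Only troglitazone has 3 pairs; elsewhere samples share a run number in 2 pairs. Leaving out 1 sample gave 0 to 7, 0 to 1, 0 to 8, 0 to 1 and 0 to 3, with the highest counts without etoposide 0.25 µM run 3 (7), medium run 3 (8) and tunicamycin run 3 (3). For differences between members and reference cells, DESeq2 called 4, 2, 2, 0 and 0, no filter 98, 62, 30, 70 and 23, and other cells of the clusters 0, 0, 1, 0 and 0. Leaving out 1 sample gave 0 to 49, 0 to 8, 0 to 20, 0 to 3 and 0 to 3, with the highest without etoposide 0.25 µM run 3 (49), etoposide 25 µM run 4 (8), medium run 3 (20), DMSO run 5 (3) and tunicamycin run 3 (3). The causes were not tested. The planned test among rotenone and cycloheximide 20 µM cells and its alternatives gave no value, as none of those cells passed the limit. Depth limits calls in members, as 10 to 61 cells per sample were summed.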
